A study of Homo sapiens with 6 samples.

Results

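Mitosis and DNA replication genes are the working parts of cell division, and 50 of them were described here: cyclins and their kinases, mitotic kinases and the spindle checkpoint, spindle motors and kinetochore proteins, replication licensing and fork proteins, enzymes of deoxynucleotide supply, transcription factors of the cell cycle, and the proliferation markers MKI67 and TOP2A. They were picked by gene symbol for these known roles, and each of the 50 symbols was found once among the 58735 genes of the deposited table. The RNA came from HEY cells, a human ovarian cancer line in long-standing laboratory use. Of 6 polyA libraries, 3 (miR-200a 1 to 3) were labelled as overexpressing miR200a and 3 (vector 1 to 3) as HEY NC with an empty vector. Both groups grew in RPMI-1640 with serum, and incubation is labelled as 48, 49 and 50 h in miR-200a 1 to 3 and as 51, 52 and 53 h in vector 1 to 3. These hours rise by 1 h from each library to the next and may not be measured times. Taken as they stand, they do not overlap between the groups and cannot be told apart from the microRNA. The vector, its promoter and whether each line is a pool or a clone are not named in the labels, and no label says that libraries of a group were separate cultures, so p-values reflect the spread between these libraries, which may be technical.

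A dividing cell copies its DNA in S phase and separates the copies in mitosis. E2F factors switch on the genes of S phase, the MCM2-7 helicase is loaded on origins by CDC6 and CDT1, and PCNA clamps the polymerases to the template. Later, cyclin B with CDK1 drives entry into mitosis, PLK1 and the Aurora kinases build the spindle, and the checkpoint proteins BUB1B and MAD2L1 hold back CDC20 until every chromosome is attached. The RNA of most of these genes rises and falls with the cell cycle, so in bulk RNA their level is often read as a measure of how many cells are cycling. In bulk libraries a smaller share of cells in a phase cannot be told apart from less RNA per cell.

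Whole reads could be recovered from the deposited FPKM values (fragments per kilobase, scaled to library size), and the libraries held between 15849592 and 21003858 of them. The precursor gene MIR200A had 5, 4 and 11 reads in the miR-200a libraries and 0 in each vector library. These few reads do not give the level of the mature microRNA, for which no value was available. Of 6 ovarian cancer cell markers, the lineage factor PAX8 stood at 29.1 to 41.2 FPKM. The keratins KRT7, KRT8 and KRT18 lay between 89.2 and 195 FPKM. WT1 was low, at 0.70 to 1.26 FPKM, and MUC16 was listed at 0 throughout. The 6 ovarian markers summed to 393 to 491 FPKM with miR-200a and 342 to 379 FPKM with the vector. Of 12 markers of other cell types, CD3E, HBB and TTR were listed at 0 in every library. Another 8, among them the leukocyte marker PTPRC, stayed at or under 0.428 FPKM, and the endothelial cadherin CDH5 ran from 35.2 to 51.2 FPKM. These 12 summed to 40.04 to 51.46 FPKM with miR-200a and 35.5 to 42.6 FPKM with the vector. The part of the markers in the results was not tested.

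The mature microRNA and its sites in the members show what the overexpressed sequence could pair with. In miR-200a-3p (RefSeq, GRCh38.p14, chr1:1167916-1167937, plus strand) the capitals mark the seed, bases 2 to 8.
hsa-miR-200a-3p: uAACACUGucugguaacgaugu
The longest annotated 3' untranslated region of each gene was searched for the 7 bases CAGTGTT that pair with this seed. A site was present in 8 of 50 members (16%), namely CCNE2, CDK2, CDC25A, CDC25B, MAD2L1, CENPA, MCM3 and E2F2, each with a single site. Among all tested genes with such a region, 2288 of 10219 (22.4%) had a site, and their regions were longer, with a median of 1442 bases against 799.5 in the members. In CCNE2 and CDC25B the site is followed by an A, which extends the pairing motif. The sites of the CDK and CDC25 genes are shown because these enzymes set the timing of the cycle; capitals mark the 7 bases, on GRCh38, at chr20:3805526-3805554 (plus strand) for CDC25B, chr12:55971961-55971989 (plus strand) for CDK2 and chr3:48157853-48157881 (minus strand) for CDC25A.
CDC25B: ctttcctatttCAGTGTTacctgtgtgct
CDK2: attattatttcCAGTGTTtgggatgacca
CDC25A: gagtatcaaatCAGTGTTggatggaccac
The 7 tested members with a site had a median log2 difference of -0.0044 between miR-200a and vector, and the 42 without one had -0.024. Over all tested genes the medians were -0.053 with a site and 0.0093 without. These medians are not corrected for GC content, with which the log2 difference correlated over tested genes (Pearson r = 0.43). The part of the sites in these differences was not tested.

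Promoter motifs are shown next because many of these genes are known to be switched on through a few shared motifs. RefSeq promoters of 300 bases (250 before and 50 after an annotated start, GRCh38.p14) were found for 39 of the 50 members and searched on both strands. Only the first listed promoter of each gene was used, and its start need not be the outermost start of the gene. For AURKB the whole promoter (chr17:8210176-8210475) lies inside the annotated gene (chr17:8204733-8210600, minus strand). The motifs were TTTGAA (the core of the cell cycle homology region, CHR, bound by the DREAM and MuvB complexes), CCAAT (bound by NF-Y) and the E2F motif in 4 spellings (TTTCCCGC, TTTCGCGC, TTTGCCGC and TTTGGCGC). All 8 promoters found in the replication licensing and fork group held an E2F motif and 0 held TTTGAA. Among mitotic kinases, checkpoint and APC/C genes, 4 of 6 held TTTGAA and 0 held E2F, and among spindle and kinetochore genes 6 of 9 held TTTGAA and 1 held E2F. Of the promoters of tested genes, 9.45% held TTTGAA, 37.2% CCAAT and 5.75% E2F, and over all 27305 promoters the shares were 15.4%, 35.7% and 3.33%. Members reached 38.5%, 66.7% and 35.9%. Motif matches describe these letters and are not shown to be bound in HEY cells.

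**Figure D1:**
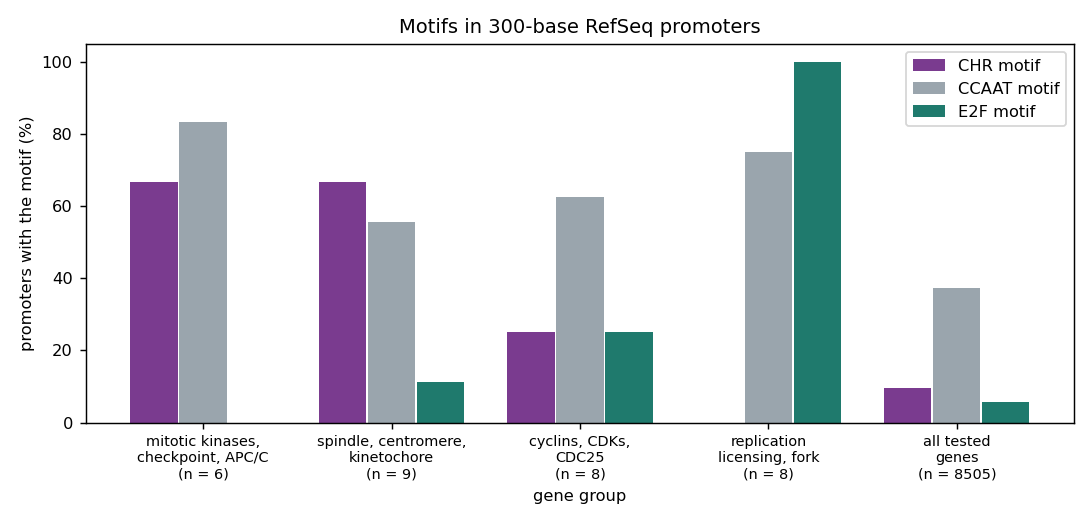
Percentage of 300-base promoters (vertical axis) that hold each of 3 motifs, in 4 groups of members and among promoters of tested genes, with the number of promoters under each group. The E2F motif stands in 8 of 8 replication promoters and the CHR motif in 0 of them, while CHR stands in 6 of 9 spindle and kinetochore promoters.

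The 4 promoters that follow show the arrangements: a mitotic cyclin and a mitotic kinase with TTTGAA and CCAAT, CDK1 with all 3 motifs, and the helicase gene MCM6 with overlapping E2F motifs on both strands. Capitals mark the motif letters. They lie at chr15:59104896-59105195 (CCNB2, plus strand), chr16:23678639-23678938 (PLK1, plus strand), chr10:60778081-60778380 (CDK1, plus strand) and chr2:135876394-135876693 (MCM6, minus strand).
CCNB2: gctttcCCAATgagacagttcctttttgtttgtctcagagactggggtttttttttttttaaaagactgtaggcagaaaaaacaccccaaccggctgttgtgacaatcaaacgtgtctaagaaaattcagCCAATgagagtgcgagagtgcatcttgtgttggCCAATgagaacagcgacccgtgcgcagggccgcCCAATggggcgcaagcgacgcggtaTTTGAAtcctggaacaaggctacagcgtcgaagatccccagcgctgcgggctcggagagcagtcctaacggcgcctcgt
PLK1: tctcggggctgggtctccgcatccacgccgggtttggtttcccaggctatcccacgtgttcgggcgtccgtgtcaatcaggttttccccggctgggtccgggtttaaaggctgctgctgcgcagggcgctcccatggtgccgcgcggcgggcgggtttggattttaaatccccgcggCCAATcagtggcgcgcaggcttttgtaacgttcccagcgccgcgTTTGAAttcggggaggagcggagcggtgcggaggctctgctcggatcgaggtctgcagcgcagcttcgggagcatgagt
CDK1: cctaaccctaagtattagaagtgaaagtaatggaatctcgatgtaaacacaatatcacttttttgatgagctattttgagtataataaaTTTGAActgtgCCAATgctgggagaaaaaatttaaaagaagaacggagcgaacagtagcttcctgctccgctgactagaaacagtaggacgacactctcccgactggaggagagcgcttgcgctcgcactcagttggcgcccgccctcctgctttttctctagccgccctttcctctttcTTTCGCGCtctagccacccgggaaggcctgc
MCM6: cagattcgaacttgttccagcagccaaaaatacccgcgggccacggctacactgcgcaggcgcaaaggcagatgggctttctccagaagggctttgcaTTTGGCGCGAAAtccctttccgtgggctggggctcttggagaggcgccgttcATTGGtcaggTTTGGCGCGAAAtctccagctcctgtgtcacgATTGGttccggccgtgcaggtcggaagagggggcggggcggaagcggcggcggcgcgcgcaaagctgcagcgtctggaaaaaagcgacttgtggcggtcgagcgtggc
In CCNB2 and PLK1 the TTTGAA motif begins 29 bases before the annotated start. The 13 members with TTTGAA and no E2F motif had a median log2 difference of 0.031 (8 above and 5 below 0). The 11 tested members with E2F and no TTTGAA had -0.011 (4 above and 7 below 0). The 12 with neither had -0.092 (4 above and 8 below 0), and the 2 with both had 0.066. Median GC content of the transcripts in these 4 classes was, in this order, 42.3, 51.6, 48.0 and 42.4%. After the correction for GC content and length described below, the medians were 0.064, -0.026, -0.045 and 0.13. The part of the motifs in these differences was not tested.

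In the comparison of miR-200a with the vector, the only one of the design, no member passed the test. A gene was tested where it reached 1 FPKM in at least 3 libraries, which held for 49 members; the log2(FPKM + 1) difference was then tested with limma over all 12231 such genes, with a Benjamini-Hochberg adjusted p under 0.05 as the threshold. Among all tested genes 49 (0.401%) passed, 35 higher and 14 lower. Of the 49 tested members 0 passed and 4 had an unadjusted p under 0.05 (AURKB and PLK1 higher, AURKA and CCNE2 lower), against 13.3% of all tested genes. The groups did not overlap for 4 members with higher values under miR-200a and 5 with lower values, against 8.29% and 10.7% of all tested genes. These shares are close to or below the background. With voom on recovered reads 0 members passed (0.94% of all genes did) and 7 had an unadjusted p under 0.05, against 14.7% of all genes. After a correction for GC content and length, chosen after the data had been seen, 0 passed (1.85% of all genes did) and 8 had an unadjusted p under 0.05, against 17.2% of all genes.

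The differences were small in both directions. Over the 49 tested members the median log2 difference was -0.023, with 21 above and 28 below 0, and over all tested genes it was -0.0090. The members ran from -0.30 (CCNE1) to 0.24 (CDC25B), and CDC25B was at 0.098 after the GC and length correction and at 0.15 to 0.37 with 1 library left out. CCNE1 was at -0.42 with a pseudocount of 0.1 in place of 1, and at -0.43 with voom on recovered reads. For 47 of the 49 the 95% interval of the log2 difference lay within a 1.5-fold change either way on the log2(FPKM + 1) scale, the exceptions being CCNE1 and CDC25B, and for all 49 it lay within 2-fold. The bound of 1.5-fold was set after the values were seen. A p-value over the threshold does not show that a level was equal, and the intervals give the room that is left.

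**Figure D2:**
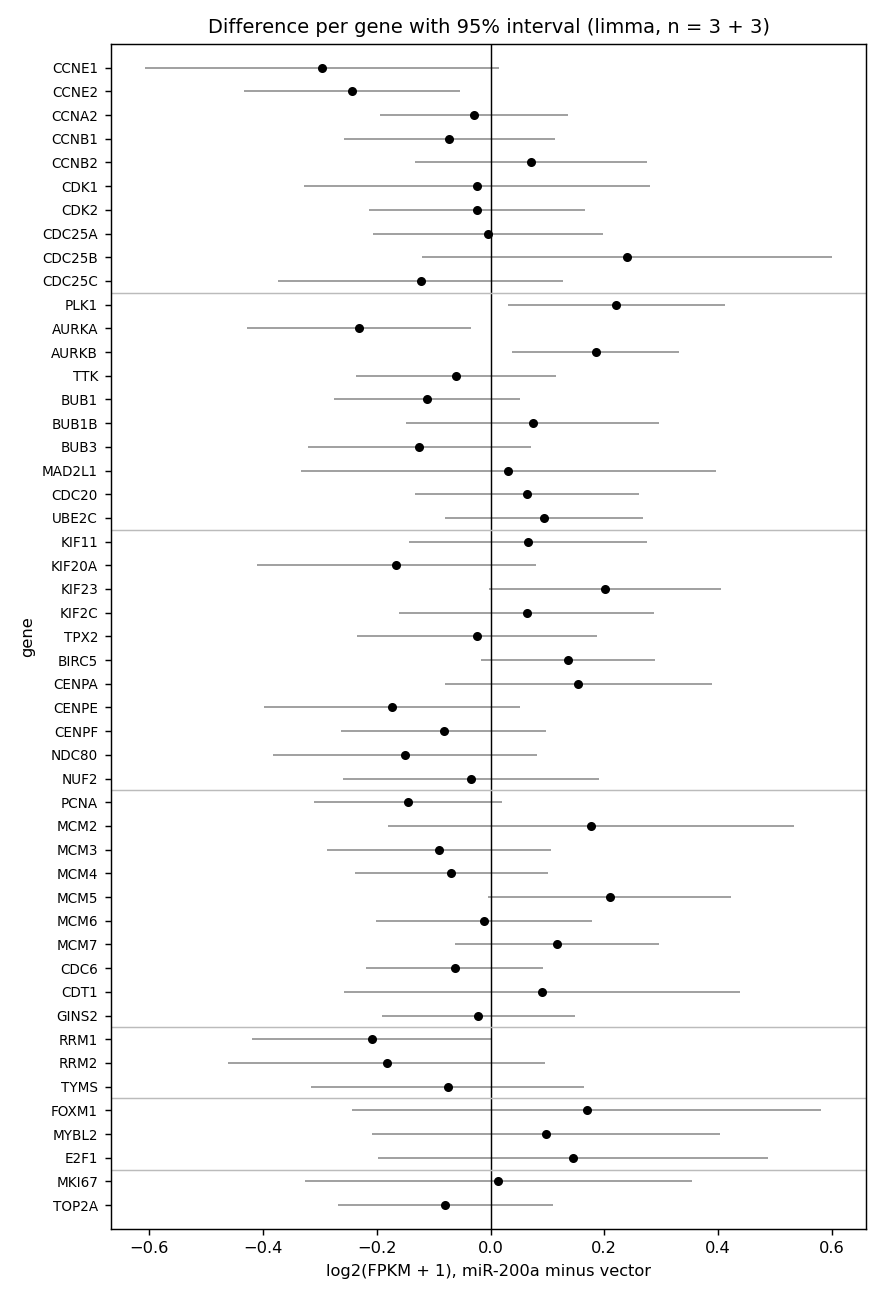
Difference in log2(FPKM + 1) between miR-200a and vector (horizontal axis) for the 49 tested members (vertical axis, ordered by role), with points for the limma estimate and bars for the 95% interval, n = 3 libraries per group. Intervals of 45 genes cross 0, and those of CCNE2, AURKA, AURKB and PLK1 do not.

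Among cyclins, CDKs and CDC25 phosphatases (10 tested, 0 passed, median log2 difference -0.027), the cyclin E genes, which push cells from G1 into S phase with CDK2, had the lowest values relative to the vector. CCNE1 (ENSG00000105173, chr19:29811898-29824308, GRCh38) stood at 1.70, 2.58 and 1.64 FPKM in miR-200a 1 to 3 and at 2.51, 2.52 and 2.81 FPKM in vector 1 to 3. The libraries miR-200a 1 and 3 were low, and miR-200a 2 lay among the vector libraries, so the groups overlapped. Its log2 difference was -0.30 (95% interval -0.61 to 0.01, limma adjusted p = 0.392), and -0.44 with an adjusted p of 0.0600 without miR-200a 2; leaving out the other libraries in turn gave adjusted p-values up to 0.843. CCNE2 (chr8:94879770-94896678) stood at 2.38, 2.21 and 2.48 FPKM against 2.76, 3.12 and 3.05 FPKM. Here all miR-200a libraries lay below all vector libraries (log2 difference -0.24, interval -0.43 to -0.05, limma adjusted p = 0.313), and the difference was -0.15 after the GC and length correction. With a pseudocount of 0.1 it was -0.32, and with voom on recovered reads -0.31. CCNE2 is crossed on the other strand by INTS8 at 11.6 FPKM, and its level is uncertain, since the sources used here do not say whether counting used strand. The same holds for CDC25C with FAM53C (8.96 FPKM), GINS2 with GSE1 (5.43 FPKM) and FOXM1 with RHNO1 (14.2 FPKM). Among others it holds for KIF20A with BRD8 (11.4 FPKM) and CDC23 (10.3 FPKM), MCM2 with TPRA1 (4.85 FPKM) and CCNA2 with EXOSC9 (9.16 FPKM).

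The mitotic cyclin and its kinase overlapped between the groups. CCNB1, cyclin B1, stood at 117, 135 and 122 FPKM with miR-200a and at 131, 134 and 129 FPKM with the vector (log2 difference -0.07, interval -0.26 to 0.11, limma adjusted p = 0.683). CDK1 stood at 55.0, 68.3 and 52.3 FPKM against 51.5, 62.8 and 63.8 FPKM (interval -0.33 to 0.28, limma adjusted p = 0.942). For both genes the highest library was miR-200a 2, and the groups overlapped. The mean of CCNB2, cyclin B2, was 37.6 against 35.6 FPKM, that of CCNA2, cyclin A2 of S phase and early mitosis, 52.7 against 53.9 FPKM, and that of CDK2 20.2 against 20.6 FPKM. Of the CDC25 phosphatases, which remove the inhibitory phosphates of CDKs, CDC25B had the widest spread, at 25.4, 19.8 and 27.5 FPKM against 24.3, 18.8 and 17.98 FPKM, so that vector 1 lay above miR-200a 2 and the groups overlapped. CDC25A averaged 4.48 FPKM in both groups and CDC25C 7.12 against 7.90 FPKM.

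Mitotic kinases gave 3 of the 4 members with an unadjusted p under 0.05, and they went in opposite directions (10 tested in the group, 0 passed, median log2 difference 0.048). AURKA, the Aurora kinase of the centrosome and spindle poles (ENSG00000087586, chr20:56369389-56392337), stood at 49.0, 58.6 and 53.4 FPKM with miR-200a and at 64.7, 62.5 and 61.8 FPKM with the vector. Every miR-200a library lay below every vector library (log2 difference -0.23, interval -0.43 to -0.03, limma adjusted p = 0.329). AURKB, the Aurora kinase of the chromosomal passenger complex (ENSG00000178999, chr17:8204733-8210600), stood at 27.8, 28.3 and 27.4 FPKM against 24.7, 24.4 and 24.0 FPKM. Here every miR-200a library lay above, with a spread within groups under 0.5 FPKM (27.8 ± 0.429 against 24.4 ± 0.368, SD, n = 3 each; log2 difference 0.18, interval 0.04 to 0.33, limma adjusted p = 0.318). PLK1, polo-like kinase 1 (ENSG00000166851, chr16:23677656-23690367), stood at 30.7, 26.7 and 31.4 FPKM against 25.8, 24.9 and 24.9 FPKM. The groups did not overlap, with miR-200a 2 nearest to the vector (log2 difference 0.22, interval 0.03 to 0.41, limma adjusted p = 0.332). Without miR-200a 2 the limma adjusted p came to 0.0668 for AURKA, 0.102 for AURKB and 0.0602 for PLK1. With each library left out in turn it reached up to 0.826, 0.793 and 0.815 for these genes.

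Of the spindle checkpoint genes none passed. BUB1, a checkpoint kinase at the kinetochore, averaged 32.6 ± 1.18 against 35.3 ± 1.42 FPKM (SD, n = 3 each) without overlap between the groups (limma adjusted p = 0.492). BUB1B, the checkpoint protein BubR1, averaged 25.7 against 24.4 FPKM, BUB3, its partner, 44.2 against 48.2 FPKM, and TTK, the kinase Mps1 upstream of both, 24.3 against 25.4 FPKM. MAD2L1, which binds and blocks CDC20, ranged from 17.9 FPKM in vector 1 to 26.9 FPKM in miR-200a 2. CDC20, the activator of the anaphase-promoting complex and the most abundant member, stood at 177, 159 and 185 FPKM with miR-200a and at 174, 162 and 162 FPKM with the vector (interval of the log2 difference -0.13 to 0.26). The groups overlapped, with miR-200a 2 the lowest library. UBE2C, the ubiquitin-conjugating enzyme of that complex, averaged 123 against 116 FPKM; its 4 pseudogenes were each under 0.5 FPKM in every library.

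Spindle motors, centromere and kinetochore genes (11 tested, 0 passed) had a median log2 difference of -0.024, and of 0.045 after the GC and length correction. After that correction 3 members, KIF23, KIF11 and CENPA, had an unadjusted p under 0.05, all higher (17.2% of all genes in either direction). As deposited, the group held 2 members whose libraries did not overlap between miR-200a and vector. KIF23, the kinesin of the central spindle in cytokinesis (ENSG00000137807, chr15:69414246-69448427), stood at 20.2, 23.8 and 19.8 FPKM with miR-200a and at 18.4, 18.7 and 17.7 FPKM with the vector. All miR-200a libraries were higher, miR-200a 2 most (log2 difference 0.20, interval -0.004 to 0.41, limma adjusted p = 0.380). After the GC and length correction its difference was 0.27 with an adjusted p of 0.0569, the lowest of any member under any setting. BIRC5, survivin, a subunit of the passenger complex that carries AURKB (ENSG00000089685, chr17:78214186-78225636), stood at 36.4, 37.7 and 36.9 FPKM against 32.7, 33.3 and 34.7 FPKM. The miR-200a libraries lay above the vector libraries (log2 difference 0.14, limma adjusted p = 0.413).

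The other motors and kinetochore genes overlapped between the groups. KIF11, the kinesin that pushes spindle poles apart, averaged 46.2 against 44.0 FPKM, KIF20A, a kinesin of cytokinesis, 49.0 against 55.3 FPKM, and KIF2C, which takes microtubule ends apart at centromeres, 65.9 against 63.2 FPKM. TPX2, the spindle factor that activates AURKA, averaged 147 ± 5.44 against 149.8 ± 14.6 FPKM (SD, n = 3 each). CENPA, the histone variant of centromeres, averaged 20.5 against 18.4 FPKM, and it shares its stretch with SLC35F6 on the same strand (9.30 FPKM). CENPE, a kinetochore motor, averaged 16.7 against 18.9 FPKM and CENPF 42.6 against 45.3 FPKM. NDC80 and NUF2, partners in the complex that grips microtubules, averaged 24.3 against 27.0 FPKM and 30.4 against 31.1 FPKM.

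Replication licensing and fork genes (10 tested, 0 passed, median log2 difference -0.016) had differences on both sides of 0. PCNA, the sliding clamp (ENSG00000132646, chr20:5114953-5126626), stood at 86.6, 93.5 and 86.4 FPKM with miR-200a and at 95.6, 100.5 and 98.9 FPKM with the vector. Every miR-200a library was lower (log2 difference -0.15, interval -0.31 to 0.02, limma adjusted p = 0.414). In the MCM2-7 helicase, whose subunits form a ring, MCM5 and MCM2 had the highest differences. MCM5 (ENSG00000100297, chr22:35400063-35425430) stood at 19.6, 16.5 and 20.1 FPKM against 16.6, 15.6 and 15.9 FPKM (log2 difference 0.21, limma adjusted p = 0.380), and miR-200a 2 lay among the vector libraries. MCM2 stood at 20.6, 14.7 and 22.3 FPKM against 17.9, 15.2 and 16.8 FPKM, so that miR-200a 1 and 3 were the highest libraries and miR-200a 2 the lowest of all 6 (log2 difference 0.18, interval -0.18 to 0.53, limma adjusted p = 0.608). MCM7 averaged 43.0 against 39.5 FPKM, MCM6 27.7 against 27.9 FPKM and MCM3 50.9 against 54.2 FPKM. MCM4 was lower in every miR-200a library, at 43.4 ± 0.151 against 45.6 ± 2.81 FPKM (SD, n = 3 each, limma adjusted p = 0.669). The loader CDC6 averaged 10.4 against 10.9 FPKM, its partner CDT1 17.8 against 16.5 FPKM, and GINS2, of the GINS complex that completes the active helicase, 6.31 against 6.43 FPKM.

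Of the 3 genes of deoxynucleotide supply 0 passed, and the groups overlapped in each (median log2 difference -0.18). RRM1, the large subunit of ribonucleotide reductase (ENSG00000167325, chr11:4094707-4138876), stood at 48.4, 56.4 and 48.5 FPKM with miR-200a and at 62.1, 59.8 and 55.5 FPKM with the vector. The groups met between miR-200a 2 and vector 3 (log2 difference -0.21, interval -0.42 to 0.00045, limma adjusted p = 0.376, or 0.0730 without miR-200a 2 and up to 0.843 with other libraries left out). RRM2, its S-phase subunit, stood at 20.8, 25.3 and 19.3 FPKM against 22.5, 27.1 and 24.7 FPKM (log2 difference -0.18, limma adjusted p = 0.509). TYMS, thymidylate synthase, averaged 21.2 against 22.5 FPKM (log2 difference -0.075, and 0.022 without vector 1), and it is crossed by ENOSF1 (4.49 FPKM) on the other strand.

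Transcription factors of the cycle overlapped between the groups (3 tested, 0 passed, median log2 difference 0.14, and -0.017 after the GC and length correction). FOXM1, an activator of G2 and mitosis genes, stood at 36.2, 26.9 and 37.1 FPKM with miR-200a and at 36.9, 25.2 and 26.9 FPKM with the vector. The high libraries were miR-200a 1, miR-200a 3 and vector 1 (log2 difference 0.17, interval -0.24 to 0.58, limma adjusted p = 0.667). MYBL2, the B-Myb partner of the MuvB complex, stood at 34.2, 27.8 and 37.4 FPKM against 32.9, 27.0 and 32.5 FPKM, low in miR-200a 2 and vector 2 (limma adjusted p = 0.739). E2F1 stood at 17.8, 11.8 and 15.4 FPKM against 13.5, 12.1 and 14.4 FPKM, again low in miR-200a 2 and vector 2 (limma adjusted p = 0.660). E2F2 was the least abundant member and was not tested, with 49, 63 and 63 reads against 81, 32 and 49 reads, or 0.493, 0.723 and 0.618 FPKM against 0.705, 0.328 and 0.555 FPKM. The groups overlapped, and with no filter on low values its log2 difference was 0.08 (limma adjusted p = 0.838).

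Of the proliferation markers neither passed. MKI67, the gene of the Ki-67 antigen that coats mitotic chromosomes (ENSG00000148773, chr10:128096659-128126385), stood at 79.5, 72.5 and 85.5 FPKM with miR-200a and at 97.9, 71.1 and 68.7 FPKM with the vector. Vector 1 was the highest and vector 3 the lowest of all libraries, so the miR-200a libraries lay inside the range of the vector (79.1 ± 6.51 against 79.2 ± 16.2 FPKM, SD, n = 3 each; interval of the log2 difference -0.33 to 0.35, limma adjusted p = 0.969). TOP2A, the topoisomerase that untangles sister chromatids, stood at 138, 157 and 143 FPKM against 159.8, 155 and 146 FPKM (interval -0.27 to 0.11, limma adjusted p = 0.662).

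**Figure D3:**
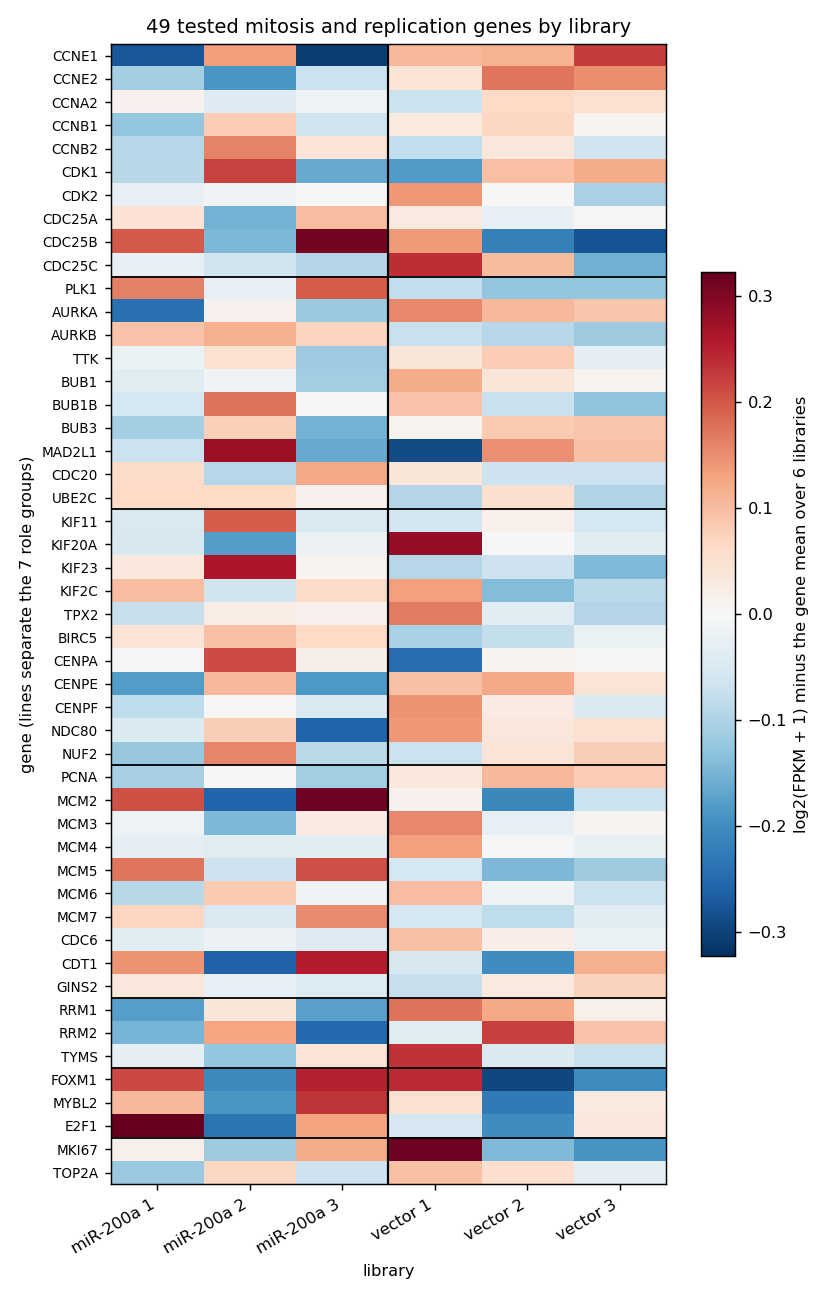
Deviation of log2(FPKM + 1) from the gene's mean over the 6 libraries (colour) for the 49 tested members (rows, with lines between 7 role groups) in each library (columns, with a line between miR-200a and vector). FOXM1, MYBL2 and MCM2 are high in miR-200a 1 and 3 and low in miR-200a 2 and vector 2, and MKI67 and KIF20A are highest in vector 1.

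Library miR-200a 2 lay apart from the others of its group, and so did vector 1. Over the 49 tested members the median absolute log2 distance was 0.0513 between miR-200a 1 and 3 and 0.0537 between vector 2 and 3. Vector 1 was 0.117 from both vector 2 and 3, and 0.104 and 0.114 from them with GC content and length corrected. The library miR-200a 2 was 0.185 and 0.181 from miR-200a 1 and 3 and 0.0776, 0.0940 and 0.166 from vector 2, 3 and 1. With GC content and length corrected, these distances were 0.0861 and 0.0902 to miR-200a 1 and 3, and 0.0674, 0.0956 and 0.161 to vector 2, 3 and 1. Without miR-200a 2 the count of members past the threshold was still 0, with a median log2 difference of -0.032, while 215 genes passed over the whole table. The members took 0.907, 0.929 and 0.923% of the reads in miR-200a 1 to 3 and 0.979, 0.907 and 0.893% in vector 1 to 3. Vector 1 thus had the highest share, and 31 of 49 members lay above their own mean there.

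The deviations followed the GC content of the transcripts. For each library the Pearson correlation across the 49 tested members between the deviation from the gene's mean and the GC content of its longest transcript was 0.73, -0.63 and 0.76 in miR-200a 1 to 3 and 0.029, -0.76 and -0.28 in vector 1 to 3. Members share each library, so these are descriptions. The 24 members of lowest GC (35.3 to 46.8%), among them CENPE, CCNE2, CDK1, KIF11 and TOP2A, had a median deviation of -0.089 in miR-200a 1, -0.078 in miR-200a 3 and 0.077 in miR-200a 2. The 25 members of highest GC (47.6 to 64.9%), among them CDT1, E2F1, MYBL2, CDC25B and MCM2, had 0.062, 0.071 and -0.066 in these libraries. The split by GC was chosen after the data had been seen.

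The difference between the groups carried the same relation. Across the 49 tested members the log2 difference and GC content had a Pearson correlation of 0.55 (0.43 over 12227 tested genes with a GC value). Of the lower GC members 5 of 24 were above 0 (median -0.068), and of the higher GC members 16 of 25 (median 0.090). After the GC and length correction the numbers were 13 of 24 (median 0.0059) and 11 of 25 (median -0.017). The correction subtracts the relation with GC content fitted over all tested genes, so a weak relation afterwards was built in. For PLK1 the log2 difference went from 0.22 to 0.10, for AURKB from 0.18 to 0.11, for AURKA from -0.23 to -0.19, for MCM5 from 0.21 to 0.086 and for E2F1 from 0.14 to -0.017. CCNE1 went from -0.30 to -0.34 and KIF23 from 0.20 to 0.27. What makes the libraries differ with GC content was not tested.

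**Figure D4:**
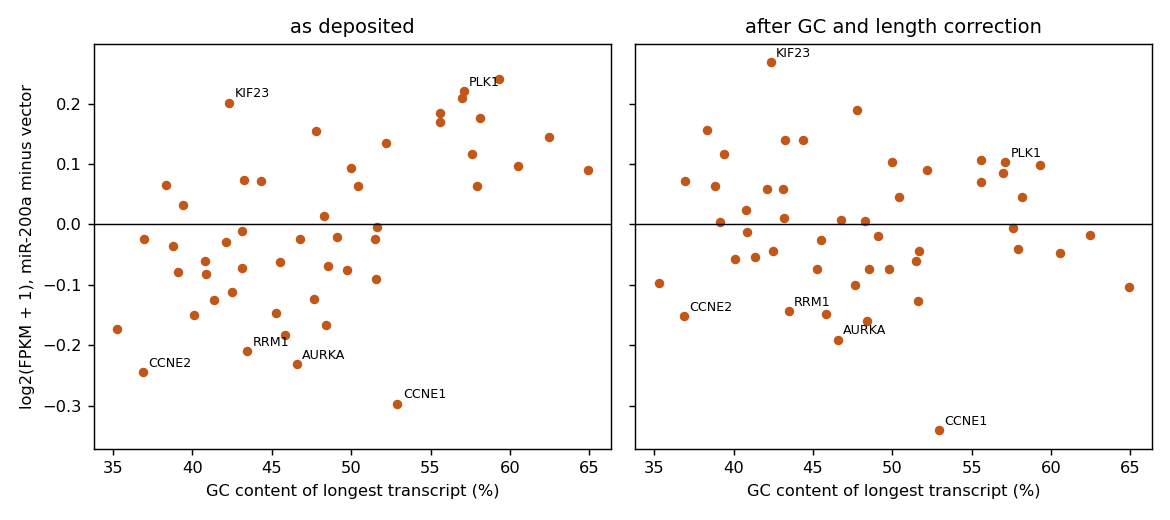
Log2(FPKM + 1) difference between miR-200a and vector (vertical axis) against GC content of the longest transcript in percent (horizontal axis) for the 49 tested members, as deposited (left) and after the GC and length correction (right). Points rise from left to right in the first panel (r = 0.55) and not in the second (r = -0.063), where the correction removes the relation by its making. CCNE1, AURKA and KIF23 keep their sign.

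AURKA and PLK1 were compared with the genes around them, because their differences had the sign of their surroundings. Of the 40 nearest tested genes of AURKA outside the cell-cycle lists, spanning 8.93 Mb of chromosome 20, 31 were lower and 9 higher with miR-200a, with a median log2 difference of -0.14. AURKA itself, at -0.23, was lower than its neighbours' median by -0.093. Of the 40 neighbours of PLK1, spanning 8.05 Mb of chromosome 16, 37 were higher and 3 lower, with a median of 0.19, and PLK1 exceeded that median by 0.034. The neighbours' medians after the GC and length correction were -0.12 around AURKA and 0.15 around PLK1. AURKA itself was then at -0.19 and PLK1 at 0.10, so PLK1 lay below its neighbours' median. Of the 21 members above 0, 14 had neighbours that were mostly higher, 5 had neighbours that were mostly lower and 2 had as many of each. These counts cover the members above 0 only, and no such share was taken over all tested genes. The neighbours' median was 0.12 for KIF23 (0.14 after the correction), 0.16 for BIRC5 (0.066), 0.085 for AURKB (0.0089) and 0.13 for MCM5 (0.049). CENPA, KIF11 and MAD2L1 were above 0 with 15, 11 and 10 of 40 neighbours higher. For CCNE1 the neighbours' median was 0.028 and for RRM1 0.067, so these members stood apart from their surroundings by -0.32 and -0.28. After the correction the gap of RRM1 was smaller, with RRM1 at -0.14 and its neighbours' median at -0.021. CCNE1 was then at -0.34 and its neighbours' median at 0.015. The part of the surroundings in the members' differences was not tested.

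**Figure D5:**
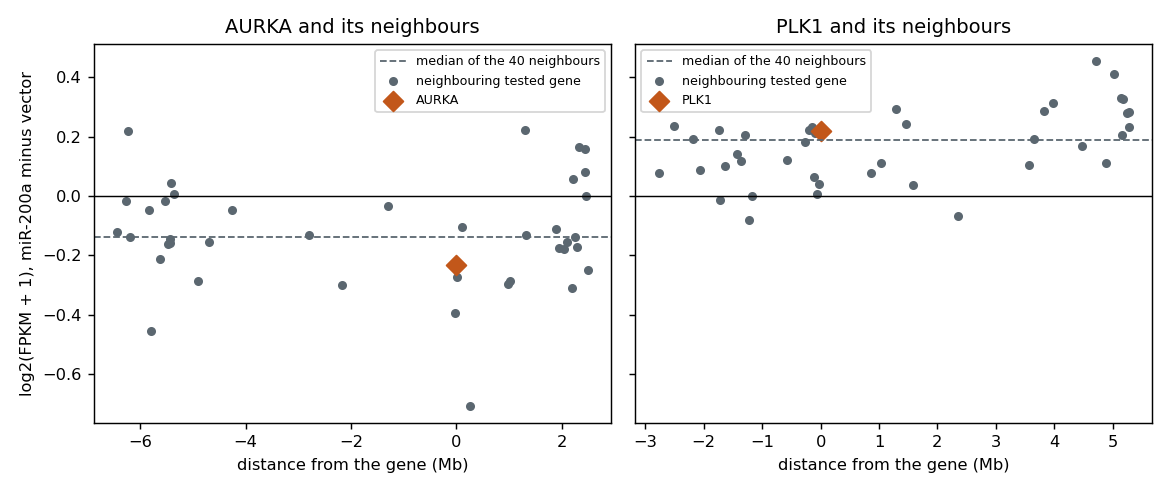
Log2(FPKM + 1) difference between miR-200a and vector (vertical axis) of AURKA (left) and PLK1 (right), drawn as diamonds, and of the 40 nearest tested genes, drawn as dots, against distance from the gene in Mb (horizontal axis). The dashed line is the neighbours' median, -0.14 for AURKA and 0.19 for PLK1, on the same side of 0 as the gene.

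Further genes of the same pathways gave 1 call. Of 81 other mitosis genes 80 were tested, and CENPM, a centromere protein of the inner kinetochore on chromosome 22, rose; none fell (median log2 difference of the list -0.012). CENPM stood at 8.58, 8.49 and 8.58 FPKM with miR-200a and at 5.61, 5.51 and 5.80 FPKM with the vector. The groups were far apart against their spread (8.55 ± 0.0533 against 5.64 ± 0.152 FPKM, SD, n = 3 each; log2 difference 0.52, SE 0.063, limma adjusted p = 0.0260). The call was lost without any of the libraries except miR-200a 2 (adjusted p up to 0.193), with no filter on low values and after the GC and length correction (0.0586), and its neighbours had a median of 0.15. DLGAP5, a spindle protein that AURKA phosphorylates, averaged 49.7 against 59.6 FPKM (limma adjusted p = 0.285), and the kinesin KIF22, on the same chromosome as PLK1, 22.6 against 18.5 FPKM (limma adjusted p = 0.326).

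All 61 other replication genes were tested and 0 passed (median log2 difference -0.053). By unadjusted p, 1 gene under 0.05 was higher and 5 were lower (6.92% and 6.35% of all tested genes). The groups did not overlap in 1 higher and 11 lower genes (8.29% and 10.7% of all tested genes). After the GC and length correction 3 genes under 0.05 were higher and 3 lower (17.2% of all genes in either direction). The list median was then -0.0059. CHTF18, which loads PCNA in cohesion, averaged 6.47 against 4.01 FPKM (limma adjusted p = 0.211), the reductase subunit RRM2B 60.9 against 85.0 FPKM (0.227), and the primase subunit PRIM1 8.82 against 11.02 FPKM (0.274). Of 28 cell-cycle brakes 25 were tested and 0 passed (median -0.031). CCNG1, cyclin G1, stood at 70.2, 84.2 and 69.9 FPKM against 95.4, 114 and 110.1 FPKM (log2 difference -0.51, limma adjusted p = 0.153), every miR-200a library being lower. The pocket protein RBL2, a part of the DREAM complex, averaged 14.9 against 17.7 FPKM (limma adjusted p = 0.321). After the GC and length correction CCNG1 and RRM2B passed as lower (limma adjusted p = 0.0107 and 0.0420) and CHTF18 as higher (0.0268). That setting called 226 of 12227 genes (1.85%), and with the replicate numbers added as a block these 3 did not pass. Without miR-200a 2 these 3 and the helicase gene RECQL4 passed, among 215 genes over the whole table. RECQL4 stood at 15.35, 9.46 and 15.8 FPKM against 10.04, 9.23 and 10.4 FPKM, with miR-200a 2 among the vector libraries.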

How the data were processed

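PolyA RNA of 6 HEY libraries was analysed from a single table. Its FPKM values were made by the authors, per the file headers, and deposited with 1 column per library. The sources used here name no aligner, counter or strand setting, and the submitters' processing notes name mouse builds, while all 58735 identifiers had the starts and ends of human GENCODE 29 (GRCh38). FPKM times gene length, divided by the smallest such product above 0 in the library, gave whole reads for 100% of nonzero values (within 0.001 of a read). Genes with 1 FPKM in at least 3 libraries were tested with limma 3.58.1 (R 4.3.3, eBayes with a trend, two-sided) on log2(FPKM + 1), which understates differences of low genes, with the group as the only term, and adjusted over all tested genes by Benjamini-Hochberg. Replicate numbers were not used as a block. Members, role groups and pathway lists were chosen with earlier results of these data known. Named with every library were 12 preset members, the 2 of smallest p per role group, those under an unadjusted p of 0.05, the most and least abundant, and, by group means apart from CENPM and CCNG1, up to 3 genes per pathway list, of which 1 is not reported here; CDC25B and RECQL4 were chosen after their values were seen. Neighbours were up to 20 tested genes on each side. The correction for GC content and length subtracted, per library, natural splines with 4 degrees of freedom. The fit was tested on simulated data, which held no link between library and GC content. Sequences are from RefSeq tables (GRCh38.p14) and GENCODE 29 transcripts.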

Additional observations from a re-analysis of the deposited data

How the results depend on the processing

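The count of members past the threshold was 0 under all 13 alternatives: a pseudocount of 0.1, no filter, the replicate block, centring on library medians, voom on recovered reads, each library left out, and the GC and length correction with and without the block. The lowest member adjusted p was 0.0569 (KIF23, GC and length correction). The members' median log2 difference ran from -0.032 to 0.0085 with 1 library left out, and was above 0 without miR-200a 1 (0.0066) and without vector 1 (0.0085). Of the 49 tested members 29 kept their sign under all 13 alternatives; the GC and length correction changed the sign of 13, and subtracting the neighbours' median that of 11. The count over all genes, 49, was 5 with no filter, 115 with voom, 226 after the GC and length correction, and 4 to 215 with 1 library left out (215 without miR-200a 2, and 4 to 10 without any of the others). Other mitosis genes gave 0 calls with no filter and after the GC and length correction, with or without the block, and 0 to 1 with 1 library left out. Other replication genes gave 2 after the correction and 0 to 3 with 1 library left out, and cell-cycle brakes 1 and 0 to 1; both lists gave 0 after the correction with the block (adjusted p = 0.0531 for CCNG1, 0.0814 for RRM2B and 0.0854 for CHTF18). The cause of these changes was not tested, except that leaving out a library lowers the number of samples.

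With the replicate block, 69 genes passed, 43 of them among the 49, and 0 members; the correction with the block gave 36 genes. Same-numbered libraries correlated in their deviations from the group means at 0.14, 0.37 and -0.0059 for numbers 1 to 3, so the numbers were not taken to pair the samples, and miR-200a 3 correlated best with vector 1 (0.20). E2F2 had the lowest depth, with 32 to 81 reads per library; the other members had at least 78.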
